A study of Mus musculus with 4 samples.

Results

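The 45 genes described here carry a cell from the G1 phase through DNA replication and into mitosis. They were picked by gene symbol, not by their measured values, from the 32285 genes in the count tables. Their level is described in splenic CD4 T cells of the mouse 6 hours after stimulation, in 11 genes of G1 cyclins, kinases and E2F factors, 12 of origin licensing and the replicative helicase, 7 of the replication fork and nucleotide supply, 4 of chromatin assembly and histone supply, and 11 of mitosis. The mice were of the C57BL6/J strain, and CD3+ CD4+ cells were sorted from spleen and cultured on anti-CD3/anti-CD28 Dynabeads. The 4 libraries, read by droplet sequencing with 10x 3′ chemistry, comprised 1 from each sex labelled Irf5-/- (knockout) and 1 from each sex labelled wild type. All 4 were stimulated, so no unstimulated cells were analysed here, and the number of mice behind a library is not given in the sources used here. The p-values below therefore measure the spread between these libraries, which may be technical.

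A resting T cell sits outside the cell cycle, held there in part by the kinase inhibitor p27 (Cdkn1b). Signals through the T cell receptor and CD28 raise D-type cyclins, which with Cdk4 and Cdk6 inactivate the retinoblastoma proteins and release E2F factors. E2F factors then drive the genes of DNA replication, whereas the genes of mitosis are held back by repressor complexes on their promoters until after S phase. The first division of a naive T cell takes place about a day or more after stimulation, so that a culture of 6 hours samples the exit from rest.

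The cells used had at least 2000 UMIs (transcript molecules counted by their barcode), at least 500 detected genes, at most 10% mitochondrial UMIs and at least 1 UMI of Cd3e, Cd3d or Cd3g. Values for 4 libraries are given throughout in the order knockout female, wild-type female, knockout male and wild-type male, named by their labels. The cells numbered 5622, 1702, 6204 and 4441, or 17969 in all. The cells had a median of 5184, 8492, 6824 and 9705 UMIs. T cell markers were present in each library. The CD8 genes Cd8a and Cd8b1 together held 320, 120, 405 and 364 UMIs, of which Cd8a gave 9, 5, 7 and 2. Irf5, the gene named in the labels, went against them. Its UMIs numbered 264, 13, 397 and 48, or 8.39, 0.860, 8.70 and 1.06 CPM (UMIs of the gene scaled to the UMIs of its library), so both libraries labelled knockout held more of it than both labelled wild type. A direction drawn from the labels below is for libraries as labelled.

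Each cell was placed by an activation score, the UMIs of 15 early response genes (among them Nr4a1, Egr2, Irf4 and Cd69) after thinning the cell to 2000 UMIs. Cells with a score of 0 to 2, cut at the 25th percentile, are called resting here, cells with 15 or more activated, and cells with 3 to 14 the middle cells. These are ranges of a score and not cell types: 1918 cells lay at a score of 2 or 3 and 851 at 14 or 15. There were 4767 resting, 8648 middle and 4554 activated cells, and resting cells made up 25.1%, 25.9%, 27.1% and 27.8% of the libraries. Middle cells held the most RNA, with 1.48 to 1.62 times the mean UMIs of resting cells, against 1.24 to 1.31 times for activated cells. The 15 score genes and 11 further genes of a resting score were left out of the tests. Markers of other cells moved with the score: the 10 erythroid genes summed to 13.1 to 561 CPM in resting cells (10 of 10 detected; highest in the female library labelled wild type) and 3.42 to 25.4 in activated cells (8 of 10 detected). The 8 myeloid genes summed to 40.4 to 103 and 19.3 to 32.0 (6 of 8 in both, with C1qa and C1qb at 0). The 5 gamma-delta T genes summed to 12.01 to 35.0 in resting and 2.097 to 8.40 in activated cells (5 of 5 in both), and the 6 NK genes to 1.66 to 12.4 (5 of 6, Klra8 at 0) and 0.399 to 1.34 (3 of 6, with Ncr1, Klra4 and Klra8 at 0). The 7 B cell genes summed to 1.11 to 40.3 and 1.098 to 2.04 (6 of 7 and 4 of 7 detected). The 2 CD8 genes summed to 11.9 to 16.7 in resting and 5.85 to 9.78 in activated cells. The regulatory T list, which holds the score gene Il2ra, summed to 145.4 to 175 in resting and 670.4 to 976 in activated cells.

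Base patterns in the promoters of these genes have known readers: the E2F site and, in mitotic genes, the cell cycle homology region (CHR) beside CCAAT boxes. RefSeq promoters on GRCm38.p6, from 250 bases before to 50 after the start, matched 38 of the 45 genes. On either strand an E2F pattern (TTTCCCGC, TTTCGCGC, TTTGGCGC or TTTGCCGC) stood in 6 of 9 promoters of licensing and helicase genes (66.7%), in 3 of 9 of the G1 genes, in 1 of 9 mitotic promoters and in none of the 7 of fork and nucleotide supply or the 4 of chromatin and histone supply, against 2.3% of 27025 genes. A CHR (TTTGAA or TTCGAA) together with CCAAT stood in 7 of 9 mitotic promoters (77.8%), in 3 of 9 licensing and helicase promoters, in 1 of 9 G1 promoters and in none of the other groups, against 7.7% of all genes. The E-box CACGTG, searched after the sequences had been seen, stood in 4 of 38 member promoters (10.5%), against 7.2% of all, and 4 copies of it lay within the Cdk4 promoter, 3 of them in the stretch shown. The sequences below are shown because the 5 genes carry the results that follow: each is the 150 bases before the start, 5′ to 3′ on the gene's strand, with the patterns in capitals. They lie at chr1:128359706-128359855 (minus strand), chr10:127063385-127063534 (plus), chr7:135716380-135716529 (minus), chr11:99024190-99024339 (minus) and chr2:164769779-164769928 (plus) of GRCm38.p6. Capitals mark E2F and CCAAT patterns in Mcm6, where 2 E2F patterns overlap and are written as 1 run, E-boxes in Cdk4, and CHR and CCAAT patterns in Mki67, Top2a and Ube2c.
Mcm6: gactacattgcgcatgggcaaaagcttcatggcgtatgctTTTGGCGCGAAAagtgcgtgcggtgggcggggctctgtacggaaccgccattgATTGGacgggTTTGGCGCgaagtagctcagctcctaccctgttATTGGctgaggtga
Cdk4: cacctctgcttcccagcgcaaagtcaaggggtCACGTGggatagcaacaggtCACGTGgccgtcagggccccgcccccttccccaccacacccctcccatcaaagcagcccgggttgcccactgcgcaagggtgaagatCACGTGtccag
Mki67: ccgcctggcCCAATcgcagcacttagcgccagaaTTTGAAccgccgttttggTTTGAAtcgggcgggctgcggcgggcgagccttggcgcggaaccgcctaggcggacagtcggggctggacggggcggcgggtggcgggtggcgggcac
Top2a: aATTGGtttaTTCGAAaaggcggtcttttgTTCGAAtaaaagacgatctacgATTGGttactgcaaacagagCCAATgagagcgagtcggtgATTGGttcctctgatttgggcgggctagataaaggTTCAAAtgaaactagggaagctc
Ube2c: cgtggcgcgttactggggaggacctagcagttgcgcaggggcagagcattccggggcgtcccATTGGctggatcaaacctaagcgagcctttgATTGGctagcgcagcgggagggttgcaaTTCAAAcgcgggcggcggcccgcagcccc
A match describes letters in a window and not a bound factor.

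The first comparison asked which of these genes were higher in activated than in resting cells of the same library. UMIs were summed per library and range, scaled with TMM factors to CPM, and tested with edgeR's quasi-likelihood test with library as a block and Benjamini-Hochberg adjustment over all genes tested. Among 33 members with enough UMIs to be tested, 5 rose (Ccnd2, Pcna, Cdk6, E2f3 and Cdk4) and 20 fell. These counts moved with the ranking of the cells: 17 were higher and 6 lower with cells ranked by the 11 resting genes instead, and 3 were higher and 24 lower with the 7 immediate early genes alone. Without 43 cells rich in mitotic transcripts, described below, 5 were higher and 10 lower. Of the 20 that fell, 8 (Birc5, Ccnb1, Ccnb2, Ccne1, Chaf1a, Mki67, Tyms and Ube2c) reached the minimum of the filter on low counts in all 4 resting libraries but not in all 4 activated ones. They were tested because they were high at rest, so their direction was favoured by the filter and their calls are given as a description. Of all 10469 genes tested, 39.0% were called higher and 41.0% lower, so calls were common; the members' shares were 15.2% and 60.6%, and their median log2 fold change was -0.68 against -0.03 for all genes. Middle cells against resting cells, a comparison added after the middle cells were seen to hold the most RNA, gave 6 higher and 13 lower among 38 members tested, against 39.2% and 39.4% of 10589 genes. The 5 members that rose in activated cells also rose in middle cells, and Dut joined them there. When cells without a CD3 UMI were let in, the middle-cell call of Cdk6 was lost, at 0.04 (adjusted p = 0.799). Summed counts cannot tell fewer cells of a kind from less RNA per cell.

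**Figure D1:**
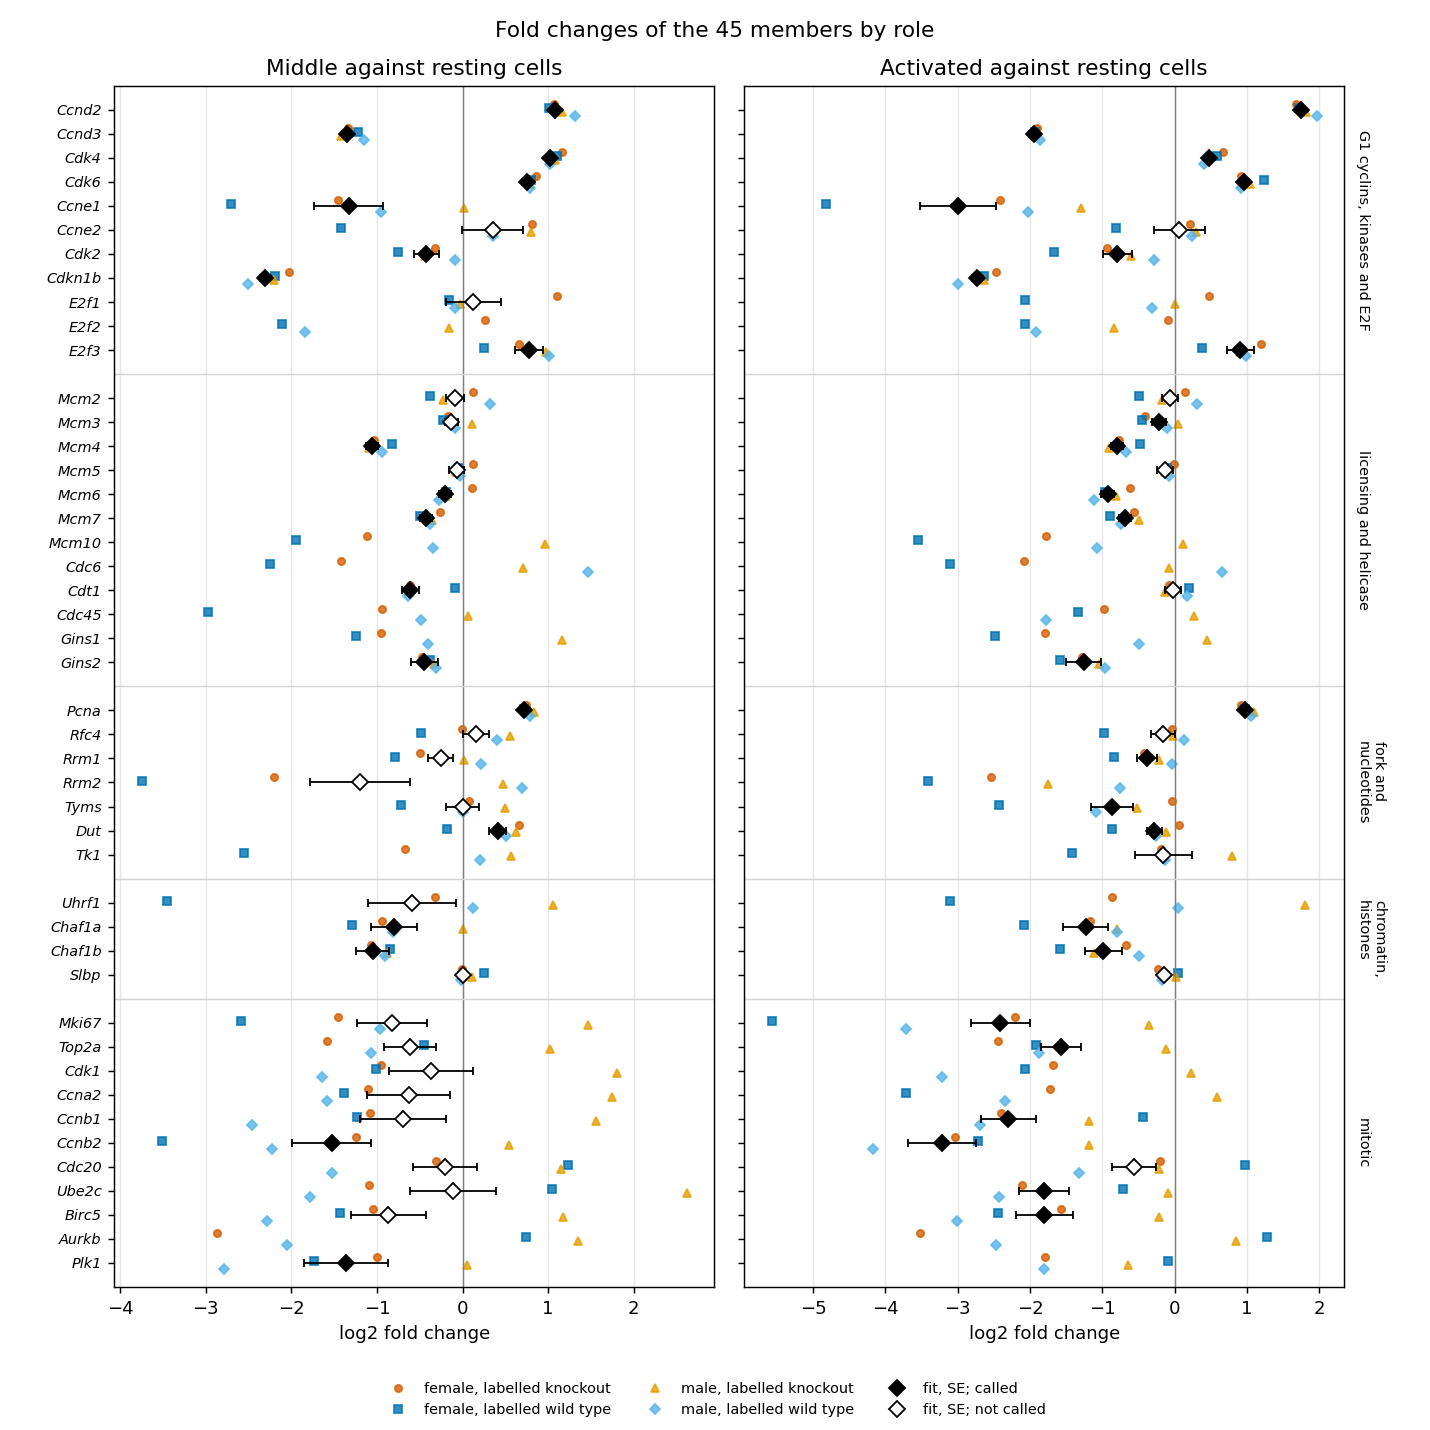
Log2 fold changes of the 45 members in middle (left) and activated (right) cells against resting cells, by role. Small symbols are single libraries (prior count 2), diamonds the fit over the 4 libraries with its standard error, filled where called, and members without a diamond were not tested. The Ccnd2, Cdk4, Cdk6, Pcna and E2f3 symbols lie right of 0 in every library, while mitotic members spread over several log2 units between libraries.

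Ccnd2, cyclin D2, the D cyclin that T cells induce on activation, rose most (ENSMUSG00000000184, chromosome 6, 127125162 to 127152193, minus strand, GRCm38, GENCODE M21). Its level was 429.6, 477, 358 and 342 CPM in resting cells and 1374, 1568, 1263 and 1341 in activated cells. The 2 sets did not overlap, and the log2 change was 1.75 (SE 0.05, adjusted p = 4.81e-16). It climbed through every range of the score, from a mean of 402 at scores of 0 to 2 to 789.7 at 3 to 7, 957 at 8 to 14 and 1386 at 15 or more. Per cell, activated cells held 3.38 to 4.48 times as many Ccnd2 UMIs as resting cells.

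Ccnd3, cyclin D3, went the opposite way (ENSMUSG00000034165, chromosome 17, 47505051 to 47599691, plus strand). It stood at 99.3, 91.8, 109 and 103 CPM in resting cells and 26.5, 24.005, 28.5 and 28.3 in activated cells, with no overlap. It fell by 1.95 on the log2 scale (SE 0.06, adjusted p = 1.2e-15). The fall was present per cell as well: middle cells, which hold more UMIs, had 0.5298 to 0.641 times the Ccnd3 UMIs of resting cells. The 2 D cyclins thus moved in opposite directions in every library.

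The partner kinases rose with different courses. Cdk4, the kinase bound by D cyclins, stood at 73.1, 68.3, 75.8 and 79.7 CPM in resting cells, 164, 147, 160.2 and 161 in middle cells and 116, 102, 105 and 106 in activated cells (ENSMUSG00000006728, chromosome 10, 127063534 to 127067920, plus strand). Every library was highest in the middle, with log2 fold changes over resting cells of 1.03 (SE 0.04, adjusted p = 9.85e-12) for middle cells and 0.48 (SE 0.05, adjusted p = 1.63e-07) for activated cells. With the 7 immediate early genes alone as the score, Cdk4 was at -0.01 (adjusted p = 0.822) in activated cells. Cdk6, the second D cyclin kinase, stood at 44.1, 37.3, 36.2 and 34.8 in resting and 83.2, 88.3, 74.7 and 66.2 in activated cells (ENSMUSG00000040274, chromosome 5, 3341485 to 3531008, plus strand). All 4 activated values lay above all 4 resting values, and the log2 change was 0.97 (SE 0.06, adjusted p = 5.91e-11). It was 0.13 (adjusted p = 0.0647) with the immediate early genes alone and 0.26 (adjusted p = 0.0407) when cells without a CD3 UMI were let in.

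Cdkn1b, which encodes the inhibitor p27, fell furthest among members with a resting level above 10 CPM (ENSMUSG00000003031, chromosome 6, 134920401 to 134925513, plus strand). Resting cells held 176, 146, 203 and 191 CPM, middle cells 42.8, 31.8, 43.8 and 33.4 and activated cells 31.6, 23.2, 32.6 and 23.9. Most of the fall was already present at scores of 3 to 7, where the level was 51.4, 39.8, 51.9 and 41.5. It fell by 2.74 on the log2 scale in activated cells (SE 0.07, adjusted p = 8e-17) and by 2.31 in middle cells. Per cell, middle cells held 0.250003 to 0.341 times the Cdkn1b UMIs of resting cells.

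**Figure D2:**
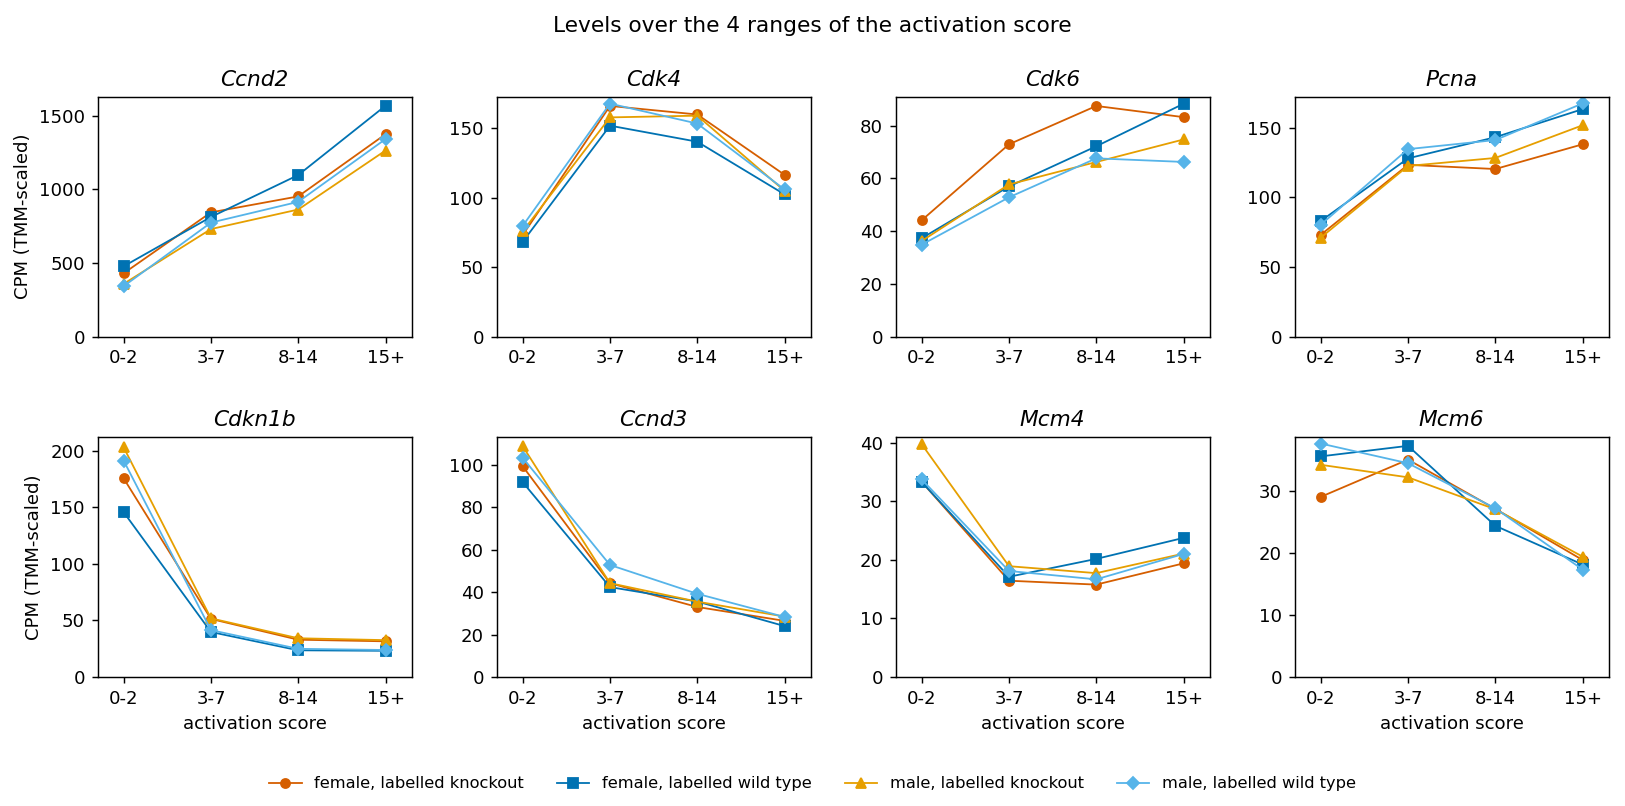
CPM (TMM-scaled) of 8 members over the 4 ranges of the activation score, 1 line per library. Ccnd2 climbs through all ranges, Cdk4 is highest at scores of 3 to 14, Cdkn1b and Ccnd3 drop between scores of 0 to 2 and 3 to 7, and the Cdkn1b lines of the libraries labelled knockout run above the others at 3 and higher.

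The E2F factors, E cyclins and Cdk2 were low. E2f3, an activating E2F, stood at 3.498, 4.88, 3.56 and 3.53 CPM in resting and 8.26, 6.401, 6.82 and 7.21 in activated cells, all 4 activated values being the higher, with a log2 change of 0.91 (SE 0.18, adjusted p = 0.000194). E2f1 and E2f2, the other activating factors, held 158 and 50 UMIs in all; neither was tested in activated cells, and E2f1 was at 0.13 (adjusted p = 0.723) in middle cells. Cdk2, the partner of E cyclins, stood at 8.21, 8.03, 6.62 and 5.703 in resting and 4.19, 2.4005, 4.32 and 4.63 in activated cells and fell by 0.79 (SE 0.20, adjusted p = 0.00159). Ccne1, cyclin E1, was called lower on 10, 18, 11 and 14 UMIs in resting against 1, 0, 4 and 2 in activated cells, and 35.0% of its UMIs lay in the 43 cells with several mitotic genes described below. It reached the filter on low counts through resting cells alone, so its direction was favoured by the filter. Ccne2, cyclin E2, was at 0.07 (adjusted p = 0.87). A wider list of 24 further G1 genes had 9 higher and 8 lower among 20 tested. These shares of 45% and 40% lay near the 39.0% and 41.0% of all genes tested. In that list Myc was at 3.68 and the kinase inhibitor gene Cdkn1a at 2.46. The pocket protein gene Rbl2 was at -2.63 and the inhibitor gene Cdkn2c at -2.22 (log2 fold changes, all of these called).

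The minichromosome maintenance genes, whose 6 products form the helicase loaded at origins in G1, did not rise as a share of the UMIs. None of the 8 licensing and helicase members tested was called higher in activated or in middle cells, and 5 were lower in each. Mcm6 stood at 29.04, 35.6, 34.2 and 37.6 CPM in resting, 31.4, 30.96, 30.005 and 31.01 in middle and 18.9, 18.1, 19.4 and 17.3 in activated cells (ENSMUSG00000026355, chromosome 1, 128331590 to 128359664, minus strand). Activated cells were lowest in every library, and Mcm6 fell by 0.92 on the log2 scale (SE 0.09, adjusted p = 1.68e-08). With cells ranked by the resting genes instead it was not called, at -0.15 (adjusted p = 0.13). Mcm4 stood at 33.3, 33.3, 39.7 and 33.7, 16.2, 18.8, 18.5 and 17.5 and 19.4, 23.7, 21.1 and 20.997 in the same ranges. It was thus lowest in middle cells, at -1.06 (SE 0.07, adjusted p = 2.38e-09), and at -0.79 (SE 0.08, adjusted p = 4.71e-08) in activated cells. Mcm7 was at -0.68 (SE 0.09, adjusted p = 1.05e-06) and Mcm3 at -0.22 (SE 0.10, adjusted p = 0.0484). Without the 43 cells described below Mcm3 was not called, at -0.13 (adjusted p = 0.181). Mcm2 and Mcm5 were not called, at -0.07 (adjusted p = 0.585) and -0.13 (adjusted p = 0.292). In middle cells the calls of Mcm6, at -0.21 (adjusted p = 0.0125), and Gins2, at -0.45 (adjusted p = 0.0219), were lost under some settings, DESeq2 and no filter on low counts among them. Mcm6 was also not called there without the female or the male library labelled wild type (adjusted p = 0.0524 and 0.0802), nor Gins2 without the female or the male library labelled knockout (0.0754 and 0.0543).

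Counted per cell, the picture differed between subunits. In middle cells Mcm3, Mcm5 and Mcm6 UMIs per cell were higher than in resting cells in all 4 libraries, with ratios of 1.06 to 1.59, 1.205 to 1.52 and 1.08 to 1.51. Mcm4 was lower per cell in all 4, with a ratio of 0.6798 to 0.741: resting cells held 15.5, 26.4, 23.2 and 26.3 UMIs per 100 cells and middle cells 10.5, 18.5, 15.97 and 19.5. Mcm6 went from 13.5, 28.2, 19.99 and 29.4 UMIs per 100 cells at rest to 20.4, 30.4, 25.9 and 34.7 in middle cells and 10.3, 14.8, 13.5 and 15.5 in activated cells. In each library the ratios of Mcm3, Mcm5 and Mcm6 lay below the ratio of all UMIs per cell, which was 1.48 to 1.62. No test was run on values per cell.

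**Figure D3:**
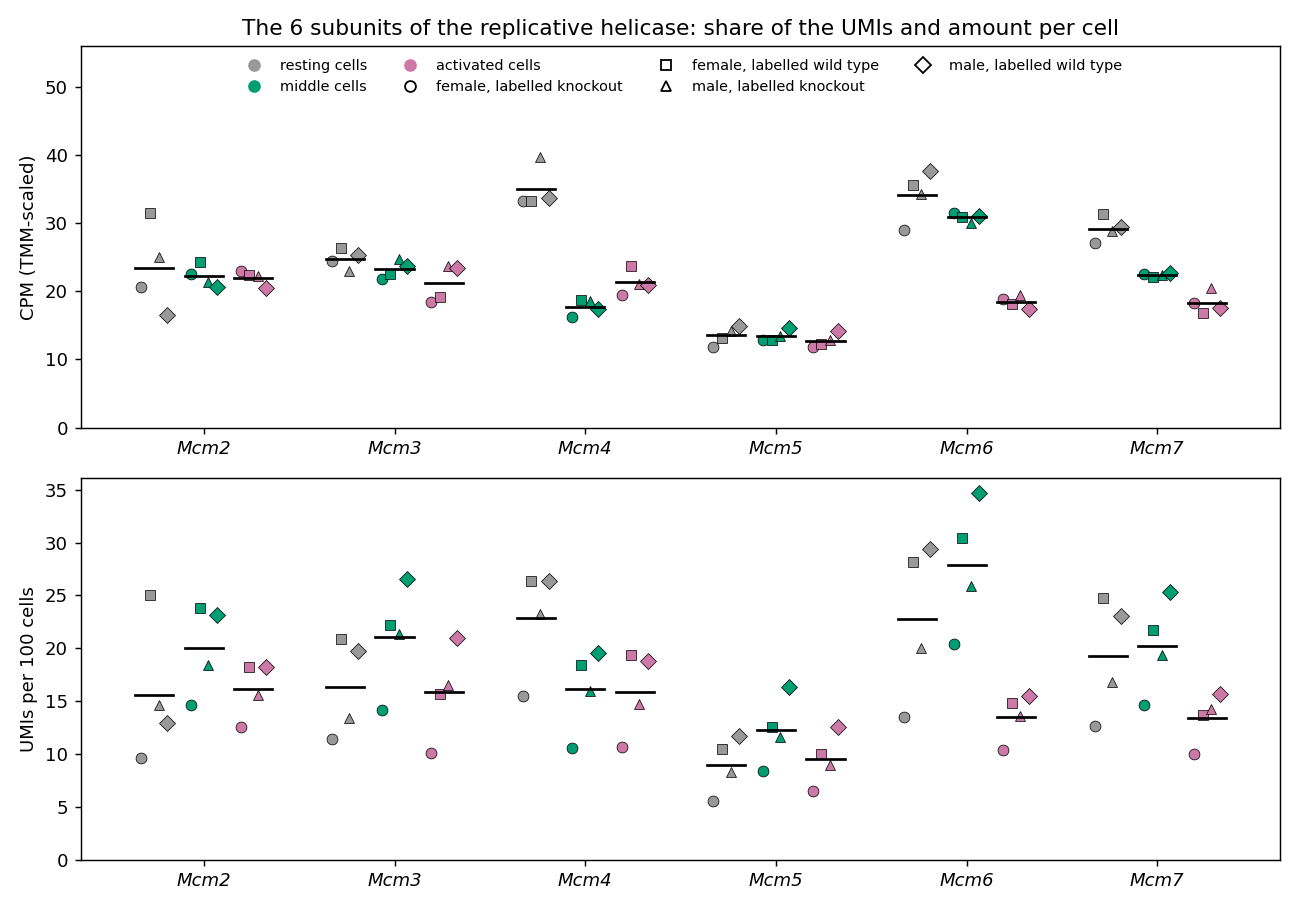
The 6 minichromosome maintenance genes in resting, middle and activated cells, as CPM (TMM-scaled, top) and as UMIs per 100 cells (bottom); symbols are libraries and bars their mean. Mcm4 is highest in resting cells on both scales, and Mcm6 drops in activated cells, to 17.3 to 19.4 CPM.

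Of the loading factors, Cdt1, which brings the helicase to origins, was not called in activated cells at -0.02 (adjusted p = 0.861) and was lower in middle cells at -0.61 (adjusted p = 6.69e-05). Cdc6, its partner in loading, held 6, 19, 9 and 9 UMIs in all cells and was tested in neither comparison. Gins2, a subunit of the GINS complex of the active helicase, stood at 4.41, 5.16, 4.48 and 4.15 CPM in resting and 1.703, 1.6003, 2.07 and 2.05 in activated cells, a log2 change of -1.26 (SE 0.24, adjusted p = 0.000102). Cdc45, Gins1 and Mcm10, further helicase factors, held 87, 69 and 46 UMIs in all and were not tested. Of 48 further replication genes, 43 were tested and 11 were higher and 24 lower, a median log2 fold change of -0.49. These were 25.6% and 55.8% of those tested, against 39.0% and 41.0% of all genes tested. The highest was Shmt1, a folate enzyme, at 2.48, and the lowest Pole2, a polymerase epsilon subunit, at -2.54.

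Pcna, the sliding clamp of the replication fork, was the member of the replication fork group that rose in activated cells (ENSMUSG00000027342, chromosome 2, 132249162 to 132253314, minus strand). It stood at 72.99, 82.9, 70.97 and 80.3 CPM in resting, 122, 137, 127 and 138 in middle and 138, 163, 152 and 167 in activated cells. No activated or middle value reached down to a resting one, and the log2 changes were 0.98 (SE 0.05, adjusted p = 5.07e-12) in activated and 0.72 (SE 0.04, adjusted p = 1.41e-09) in middle cells. Per cell the ratio was 2.04 to 2.63 in middle cells. Free RNA, in barcodes with under 200 UMIs, held 172, 199, 142 and 191 CPM of Pcna, above the resting level in each library. The same held for Ccnd2, at 578, 519, 438 and 441 CPM in free RNA, and for Cdk6, at 55.7, 58.1, 41.5 and 36.5. The part of free RNA in the levels of these 3 genes in cells was not tested.

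The nucleotide enzymes were less uniform. Dut, the dUTPase that keeps uracil out of DNA, was higher in middle cells at 0.41 (SE 0.10, adjusted p = 0.00175) and lower in activated cells at -0.28 (SE 0.10, adjusted p = 0.0165); the female library labelled wild type was lower in both, and single libraries ranged from -0.87 to 0.06 in activated cells. Tyms, thymidylate synthase, stood at 3.498, 6.598, 4.28 and 3.63 CPM in resting and 3.41, 1.07, 2.93 and 1.62 in activated cells, at -0.87 (SE 0.29, adjusted p = 0.0103). It was among the 8 members tested through their resting level. Rrm1, the large subunit of ribonucleotide reductase, was at -0.38 (SE 0.14, adjusted p = 0.0183). Without the 43 cells that held 3 or more mitotic members, neither was called, at -0.59 (adjusted p = 0.0567) and -0.11 (adjusted p = 0.407). Rrm1 was also not called without the female library labelled knockout, at -0.33 (adjusted p = 0.0765), or without its wild-type-labelled counterpart, at -0.25 (adjusted p = 0.0965). Rrm2, the small subunit whose level follows S phase, held 25, 31, 63 and 19 UMIs, 60.1% of them in those cells, and was not tested in activated cells. Tk1, thymidine kinase, and Rfc4, a clamp loader subunit, were at -0.15 (adjusted p = 0.725) and -0.16 (adjusted p = 0.367). With cells ranked by the resting genes, all of these were called higher instead. Dut was then at 0.57 (adjusted p = 9.51e-06), Tyms at 0.66 (adjusted p = 0.00377) and Rrm1 at 0.37 (adjusted p = 0.0154). Rrm2 was at 1.16 (adjusted p = 0.0125), Tk1 at 1.25 (adjusted p = 0.0313) and Rfc4 at 0.39 (adjusted p = 0.0251).

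Both tested subunits of chromatin assembly factor 1 fell. Chaf1a, the large subunit, stood at 2.89, 4.02, 1.93 and 2.39 CPM in resting and 1.18, 0.8002, 1.04 and 1.29 in activated cells, and its log2 change was -1.23 (SE 0.31, adjusted p = 0.0015). Chaf1b, the p60 subunit, stood at 3.65, 5.16, 3.97 and 3.42 and 2.23, 1.6003, 1.73 and 2.37, a log2 change of -0.99 (SE 0.25, adjusted p = 0.00177). Chaf1a reached the filter on low counts through resting cells alone, so its direction was favoured by the filter. For both, every library was lower in activated cells. Neither was called with cells ranked by the resting genes, where Chaf1a was at -0.09 (adjusted p = 0.751) and Chaf1b at -0.44 (adjusted p = 0.177). Slbp, which binds the stem loop of histone messages, was at -0.14 (adjusted p = 0.0633), and Uhrf1, which guides maintenance methylation, was not tested in activated cells.

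The mitotic members were sparse. Together they held 4146 UMIs in the 17969 cells, and 17056 cells held none of them. Of the 7 tested in activated cells, 6 fell, 5 of them among the 8 tested through their resting level, and none rose; in middle cells 2 of 10 fell, Ccnb2 and Plk1, and none rose. Mki67, the proliferation marker Ki-67, stood at 13.99, 21.5, 3.46 and 6.53 CPM in resting, 4.96, 3.43, 9.85 and 3.26 in middle and 2.88, 0.267, 2.68 and 0.323 in activated cells (ENSMUSG00000031004, chromosome 7, 135689784 to 135716361, minus strand). It fell by 2.41 on the log2 scale in activated cells (SE 0.41, adjusted p = 2.91e-05). In the male library labelled knockout the 2 ranges lay close, and single libraries ran from -5.58 to -0.35. Top2a, topoisomerase II alpha, stood at 28.6, 10.6, 7.23 and 10.4 in resting and 5.11, 2.67, 6.65 and 2.69 in activated cells, a log2 change of -1.57 (SE 0.27, adjusted p = 3.88e-05) (ENSMUSG00000020914, chromosome 11, 98992943 to 99024189, minus strand). The B cyclins, which drive entry into mitosis with Cdk1, were at -2.30 (SE 0.38, adjusted p = 2.43e-05) for Ccnb1 and -3.22 (SE 0.47, adjusted p = 5.61e-06) for Ccnb2. These rested on few UMIs, 37, 4, 12 and 30 in resting against 7, 3, 5 and 3 in activated cells for Ccnb1 and 23, 22, 12 and 31 against 2, 3, 5 and 0 for Ccnb2. Ube2c, the ubiquitin enzyme of the anaphase-promoting complex, was at -1.80 (SE 0.35, adjusted p = 0.000122), and Birc5, survivin, at -1.80 (SE 0.40, adjusted p = 0.000432). With cells ranked by the resting genes, all 6 turned: Mki67 was at 1.42 (adjusted p = 0.00223), Top2a at 0.97 (adjusted p = 5.48e-05), Ccnb2 at 1.21 (adjusted p = 0.103), Ccnb1 at 1.16 (adjusted p = 0.112), Ube2c at 1.98 (adjusted p = 0.00815) and Birc5 at 1.022 (adjusted p = 0.0375). With cells split at the median score, Ccnb1 and Ube2c were not called, at -0.51 (adjusted p = 0.121) and -0.07 (adjusted p = 0.834). Cdc20, an activator of that complex, was not called at -0.56 (adjusted p = 0.0951). Cdk1, Ccna2, Aurkb and Plk1 were not tested there. Of 41 further mitotic genes, 28 were tested, 22 were lower and 2 higher (H2afz at 0.28 and Bub3 at 0.13). These were 78.6% and 7.14% of those tested, against 41.0% lower and 39.0% higher among all genes tested. How many of the 28 were tested through their resting level was not examined, so their count is a description.

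Most of the mitotic UMIs lay in few cells. Cells with UMIs of 3 or more of the 11 mitotic members numbered 15, 4, 18 and 6, or 0.267%, 0.235%, 0.290% and 0.135% of the libraries (exact 95% binomial intervals 0.149 to 0.440, 0.0641 to 0.601, 0.172 to 0.458 and 0.0496 to 0.294, covering counting error only). These 43 cells, 0.239% of all, held 3056 of the 4146 mitotic UMIs (73.7%), while they held 0.743% of all UMIs. A further 830 cells held 1 mitotic member and 40 held 2. For Ube2c 92.1% of the UMIs lay in the 43 cells, for Mki67 87.6%, for Top2a 65.5% and for Cdc20 36.8%, against 0.624% for the G1 members as a group and 3.28% for the licensing and helicase members.

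By range, 13 of the 43 were resting cells (0.273% of them, 0.145 to 0.466), 26 middle cells (0.301%, 0.196 to 0.440) and 4 activated cells (0.0878%, 0.0239 to 0.225), with none in the activated range of either library labelled wild type. Median UMIs of the 43 were 21822, above the libraries' medians. Of the 43, 8 held 10 or more UMIs of the erythroid (5 cells), myeloid (2) or NK list (1), and these 8 held 856 of the mitotic UMIs. In the resting range they were 7 of the 13 cells and held 851 of the 1054 mitotic UMIs of those 13. Foxp3 was detected in 4 of the 43. Without the 43 cells, 5 members were still called higher and 10 lower in activated cells. Top2a was then at -0.44 (adjusted p = 0.0761), and Mki67, Ccnb1, Ccnb2, Ube2c and Birc5 had too few UMIs to be tested. The same counts, 5 and 10, were left when cells with erythroid, myeloid, NK or B markers were removed, with Top2a at -0.18 (adjusted p = 0.555). Ccnd2, Cdk4, Cdk6, E2f3, Pcna, Ccnd3, Cdkn1b, Cdk2, Mcm4, Mcm7 and Gins2 kept both direction and call with cells ranked by the resting genes.

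**Figure D4:**
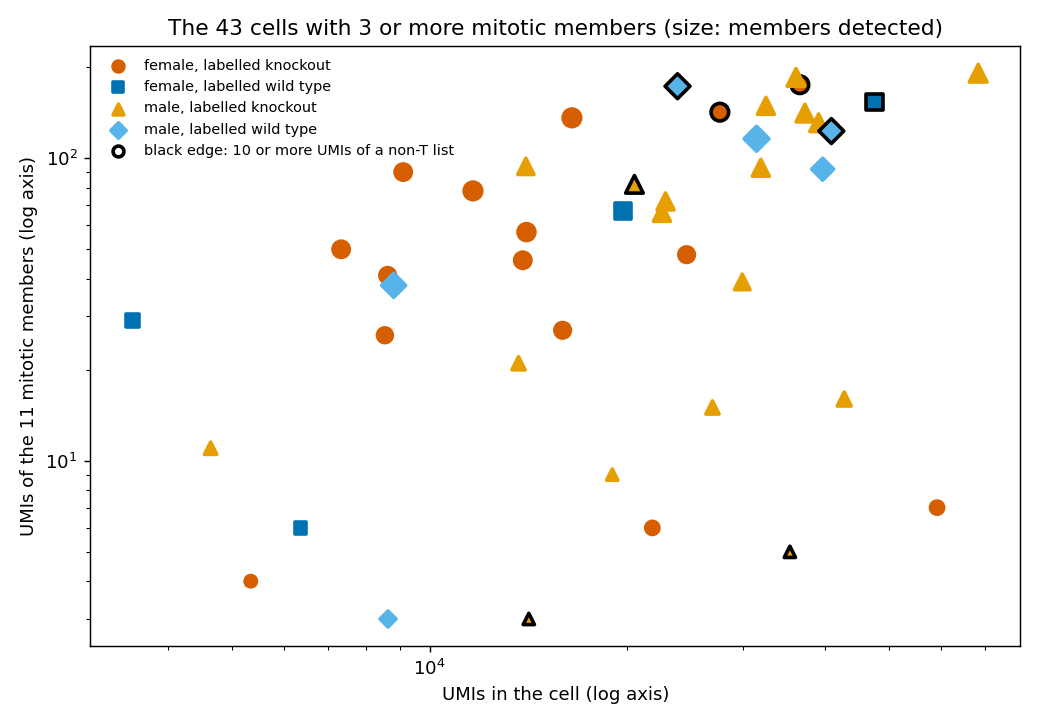
The 43 cells with UMIs of 3 or more mitotic members, by total UMIs (x, log axis) and UMIs of the 11 mitotic members (y, log axis); symbol size grows with the members detected. Cells with 10 or more UMIs of the erythroid, myeloid or NK list have a black edge, and 5 of these 8 are among the cells with more than 100 mitotic UMIs.

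Free RNA also held mitotic transcripts. Ube2c stood at 13.01, 10.5, 9.19 and 9.398 CPM in barcodes with under 200 UMIs, above its level in activated cells of every library, and Mki67 at 6.35, 18.8, 4.89 and 3.91. Barcodes of that kind at ranks 20001 to 30000 held a median of 34, 141, 45 and 92 UMIs, or 0.972% to 2.42% of the median of resting cells. Its part in the counts of cells with 1 or 2 mitotic members was not tested.

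The study's own comparison sets libraries labelled knockout against libraries labelled wild type, with sex as a term in the model. Over all cells 4 of 44 members tested were called higher in libraries labelled knockout and none lower, against 0.635% of 12604 genes called higher. Regulatory T markers also moved with the label: Foxp3, their defining factor, stood at 23.5, 7.81, 24.3 and 12.1 CPM over all cells, and the summed regulatory T list at 556, 469, 506 and 406, each higher in both libraries labelled knockout, and their part in the calls was not tested. All 4 members called were mitotic: Ube2c, Top2a, Ccnb1 and Cdk1. The 11 mitotic members all had log2 fold changes above 0, with a median of 0.88, while the medians of the other roles lay between -0.03 and 0.14. Of the 41 further mitotic genes, 40 were tested and 0 were called by edgeR's quasi-likelihood test, 12 at an unadjusted p under 0.05, with a median log2 fold change of 0.22. No G1, licensing, fork or chromatin member was called by edgeR's quasi-likelihood test, and of these 33 only Cdkn1b had an unadjusted p under 0.05.

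Ube2c stood at 5.86, 2.203, 4.66 and 1.47 CPM over all cells and Top2a at 12.3, 7.21, 11.1 and 5.55. In both genes each library labelled knockout was above each labelled wild type, with log2 fold changes of 1.56 (SE 0.18, adjusted p = 0.00118) and 0.90 (SE 0.12, adjusted p = 0.00349). Ccnb1 was at 1.57 (SE 0.27, adjusted p = 0.0166) and Cdk1, the kinase of the B cyclins, at 1.51 (SE 0.31, adjusted p = 0.0468). The 43 cells were picked by their mitotic UMIs and held 92.1% of those of Ube2c and 83.3% of those of Cdk1, so taking them out removes most of the counts of these genes by construction. Without them none of the 4 was called: Ube2c was then at -0.08 (adjusted p = 0.984), Cdk1 at 0.24 (adjusted p = 0.965), Top2a at 0.64 (adjusted p = 0.214) and Ccnb1 at 1.62 (adjusted p = 0.0809). The libraries labelled knockout held 33 of the 43 cells and 11826 of the 17969 cells in all. Leaving out each library in turn, with no sex term, left 0 to 5 members called: 0 without the male library labelled wild type and 1 without the female library labelled knockout. None of the 4 was called with sex left out of the model, with DESeq2, after thinning to 2000 UMIs or with cells lacking CD3 let in, while 7 members were called when cells with non-T markers were removed.

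**Figure D5:**
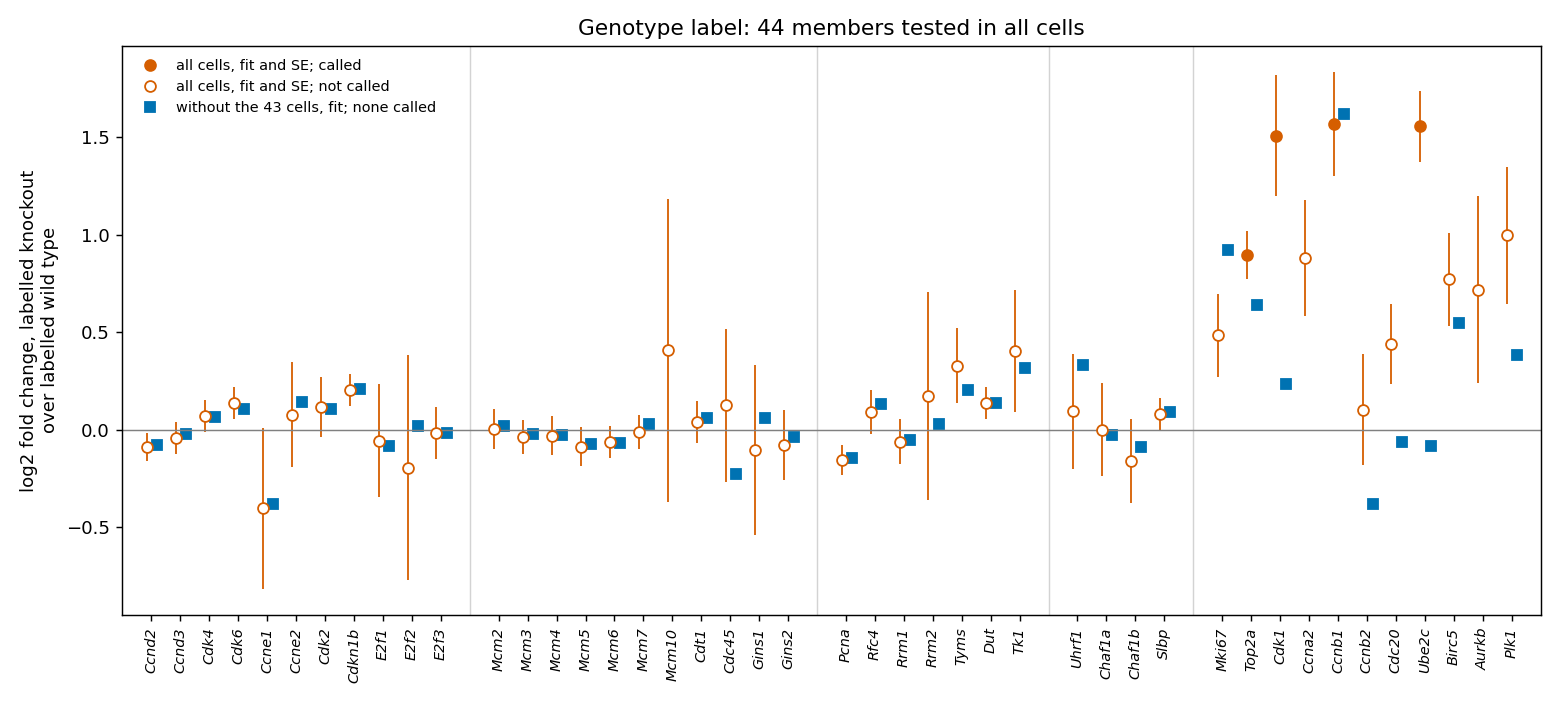
Log2 fold change of knockout-labelled over wild-type-labelled libraries for the 44 members tested in all cells, by role. Circles are the fit with its standard error (filled where called) and squares the fit without the 43 cells; Ube2c goes from 1.56 to -0.08, and Ccnb1 stays near 1.6 without being called.

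Within ranges, the calls again fell on mitotic members. In activated cells 2 of 29 members were higher in libraries labelled knockout (1.84% of 10134 genes were), Mki67 at 3.096 (SE 0.62, adjusted p = 0.000985) and Top2a at 1.17 (SE 0.32, adjusted p = 0.022). The Mki67 call rested on 22, 1, 31 and 3 UMIs, and Mki67 reached the filter on low counts through the libraries labelled knockout alone. Without the 43 cells, 4 of which were activated, Mki67 had too few UMIs to be tested and Top2a was not called, at 0.45 (adjusted p = 0.712). Leaving out each library in turn left 0 or 1 of them called, 0 when either library labelled knockout or the male library labelled wild type was left out, and DESeq2 called neither. The log2 differences were 3.05 to 3.27 for Mki67 and 0.94 to 1.29 for Top2a when a library was left out, so these calls were lost at a similar size. In resting cells none of 39 members was called by edgeR's quasi-likelihood test, against 0.386% of 10618 genes higher, and 4 had an unadjusted p under 0.05, all lower: Ccne1, Uhrf1, Mki67 and Ccnb2. Mki67 in resting cells was at -0.76 (adjusted p = 0.16), and the change from resting to activated cells differed between the labels by 3.66 (SE 0.76, adjusted p = 0.0459) on the log2 scale. That was the 1 member among the 0.0955% of 10469 genes called higher for such a difference. It was not called without the male library labelled knockout, at 2.77 (adjusted p = 0.0713), or with cuts set within each library, at 3.36 (adjusted p = 0.0892). The 8 cells with erythroid, myeloid or NK UMIs described above, 7 of them resting, held 317, 153, 90 and 296 UMIs of the mitotic members. The difference was not fitted without such cells, and their part in it was not tested.

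In middle cells, tested after the data had been seen, 9 of 41 members were higher in libraries labelled knockout, against 1.17% of 11464 genes, and 8 of them were mitotic. The mitotic members had a median log2 fold change of 1.81 there, and the further mitotic genes one of 0.40, with 6 of 33 tested called higher. Among the 8, Ccnb1 rested on 47, 3, 98 and 10 UMIs and Plk1 on 15, 1, 34 and 3. Both reached the filter on low counts through the libraries labelled knockout alone. Their direction was thus favoured by the filter, and their calls are given as a description. The ninth was Cdkn1b. Its level in middle cells, 42.8, 31.8, 43.8 and 33.4 CPM, was higher in both libraries labelled knockout, with a log2 change of 0.40 (SE 0.09, adjusted p = 0.0339). Both libraries labelled knockout were also the higher at scores of 8 to 14, with a mean of 33.7 against 24.3, and in activated cells, with 32.1 against 23.6 and a log2 change of 0.44 (adjusted p = 0.0524). At rest the sets overlapped, and the difference of the changes between labels was at 0.32 (adjusted p = 0.507). Without the 43 cells 2 members were called in middle cells, Cdkn1b at 0.40 (adjusted p = 0.00565) and Ccnb1 at 2.22 (adjusted p = 0.00516). Ccnb1 was again tested through the libraries labelled knockout alone, so its call is a description. Over all cells Cdkn1b was not called, at 0.20 (adjusted p = 0.468).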

How the data were processed

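Libraries were made from sorted splenic CD4 T cells after 6 hours with anti-CD3 and anti-CD28 beads, per the labels' protocols. The authors deposited whole-number UMI counts per gene and barcode for all barcodes, unnormalized, made with Cell Ranger 6.0.2 on mm10 per the submitters' processing notes (the file headers name Cell Ranger 4); use of strand in counting is not given in the sources used here. The 45 members, the gene lists, score and tests were chosen with earlier results of these data known. Barcodes were filtered here as given in the report, leaving 17969 of 19100 barcodes that met the other limits; 40 barcodes occurred in more than 1 library. Doublets were kept; scrublet's own threshold marked 3, 8, 134 and 34 cells, and an alternative removed the highest scores at a rate that grew with the number of cells. Score cuts were the 25th and 75th percentile with libraries weighted equally. UMIs were summed per library and range and tested with edgeR 4.0.16 (R 4.3.3; TMM, filterByExpr, quasi-likelihood, Benjamini-Hochberg, called at adjusted p under 0.05), with library as a block within libraries and sex as a term between labels; the script was tested on simulated data, where the share of false calls ran above the 5% that the threshold sets in both comparisons simulated. Members named with every library's value are Ccnd2, Ccnd3, Cdk4, Cdk6, Cdkn1b, Mki67, Top2a, Pcna and up to 4 called members a role with 1 direction in all libraries. Alternatives changed the score, cuts, thinning, doublets, cell filters, scaling, test (DESeq2 1.42.0), gene filter and libraries. Scanpy 1.11.5 and Python 3.11.15 were used.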

Additional observations from a re-analysis of the deposited data

Results flagged for a closer look

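Mki67 met the criterion of an effect that differs between the 2 labels. Its change from resting to activated cells was higher in libraries labelled knockout by 3.66 on the log2 scale (SE 0.76, adjusted p = 0.0459 by edgeR's quasi-likelihood test on the interaction). The UMIs behind it were 92, 75, 34 and 63 in resting and 22, 1, 31 and 3 in activated cells. Over 7 other settings its adjusted p ran from 7.09e-07 to 0.0924. The 43 cells with 3 or more mitotic members held 87.6% of the Mki67 UMIs, and without them Mki67 had too few UMIs to be tested in activated against resting cells. Of the 13 such cells in the resting range, 7 held 10 or more UMIs of the erythroid, myeloid or NK list. These 7 held 851 of the 1054 mitotic UMIs of the 13, and their part in the difference was not tested.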

How the results depend on the processing

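741 values of single genes were recomputed under the alternatives, and 625 kept their direction and side of the threshold. The cause of each change below was not tested, save that fewer UMIs or cells leave fewer genes to test. In activated against resting cells, 3 members rose with the immediate early genes alone, where Cdk4 was at -0.011. With the resting genes as the score 17 rose and 6 fell, and the log2 fold changes turned for Mki67 (1.42), Top2a (0.97), Ccne1 (0.12), Tyms (0.66), Rrm1 (0.37), Ccnb2 (1.21), Ccnb1 (1.16) and Ube2c (1.98). They also turned for Dut (0.57), Birc5 (1.022), Tk1 (1.25), Rfc4 (0.39), Cdc20 (0.47), Mcm2 (0.17), Mcm3 (0.066) and Mcm5 (0.091). The number that fell was 10 with cuts at the 10th and 90th percentile, 9 after thinning to 2000 UMIs, and 10 without cells with non-T markers or without cells with 3 or more mitotic members. Leaving out each library in turn left 5 higher and 17 to 22 lower. In middle cells 6 fell after thinning and 9 to 18 when a library was left out. There Mki67 (0.42) and Top2a (0.11) turned without cells with non-T markers, Tyms turned with no CD3 requirement (-0.27), with DESeq2 (-0.050), with no replicate block (-0.010) and when a library was left out (-0.24 to 0.20), and Ube2c with DESeq2 (0.059) and when a library was left out (-1.12 to 0.59).

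Without the replicate block, which here is the library, 5 members rose and 20 fell in activated cells, as with it, and 6 rose and 12 fell in middle cells.

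Between the labels over all cells 104 genes and 4 members were called. With no replicate block, which here is the sex term, 10 genes and 0 members were called; DESeq2 called 29 and 0. Members called numbered 0 after thinning, 0 without the cells with 3 or more mitotic members, 0 with no CD3 requirement and 7 without cells with non-T markers. Without the cells with 3 or more mitotic members Ube2c turned to -0.083. In the middle cells 165 genes and 9 members were called, and 322 and 2 without those cells as well. Leaving out each library in turn gave 49 to 280 genes (65 without the male library labelled wild type) and 0 to 5 members. In activated cells 333 genes and 2 members were called: 6 and 0 after thinning, 118 and 1 without cells with non-T markers, 22 and 0 with no replicate block, 17 and 0 with DESeq2, 0 members without the cells with 3 or more mitotic members, and 15 to 286 genes (125 without the male library labelled wild type) and 0 to 1 members when a library was left out. In resting cells 55 genes and 0 members were called: 15 genes after thinning, 128 with doublets removed, 88 and 1 member without cells with non-T markers, 3 with no replicate block, 7 with DESeq2, 131 with no expression filter and 3 to 84 when a library was left out (14 without the male library labelled knockout), where Uhrf1 ran from -2.55 to 0.26. For the difference of changes between labels 28 genes and 1 member were called: 8 and 0 with cuts within each library, 1 and 0 after thinning, 15 and 0 with RLE size factors, 71 genes with no expression filter, and 26 to 211 genes and 0 to 3 members when a library was left out. The mitotic members held 4146 UMIs in all, which limits every statement on them.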
